A study of Mus musculus with 4 samples.

Results

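Heat shock genes, 10 in number, were followed in the immune cells of mouse melanomas: Hspa1a, Hspa1b, Hspb1, Dnajb1, Dnaja1, Hsph1, Hspa8, Hsp90aa1, Hsp90ab1 and Hspe1. They were taken as a listed set by gene symbol, and all 10 were among the 27998 genes of the files, each under 1 identifier. The libraries came from B16-GP33 tumours, a C57BL/6 melanoma line that carries the viral GP33 epitope, grown subcutaneously in the right flank of C57BL/6 mice and taken at day 18. On days 8, 10 and 12 the mice had received 200 ug of control IgG, of anti-PD-1 or of anti-PSGL-1, or 200 ug of each of the latter antibodies (the combination). PD-1 restrains T cells that have met antigen, and PSGL-1 is a leukocyte ligand for selectins. Every group went through the same enzymatic digestion at 37 °C on a tissue dissociator, and viable (propidium iodide-negative) CD45.2+ leukocytes were sorted for 10x Genomics single-cell RNA sequencing. There was 1 library per treatment, and how many mice it was drawn from is not given in the sources used here, so no test between treatments was possible.

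Heat shock proteins are chaperones that keep other proteins folded and help to refold or clear damaged ones. Most of the inducible members are switched on by HSF1, a transcription factor that is held inactive by chaperones and binds heat shock elements, repeats of GAA and its reverse complement TTC, once unfolded proteins draw the chaperones away. In single-cell work on tissues these genes also rise when cells are warmed and handled during dissociation, so a library's level can reflect the tumour, the preparation or a mixture of these. Hspa1a and Hspa1b encode the inducible HSP70 proteins and Hspb1 a small heat shock protein (HSP25 in the mouse). Dnajb1 and Dnaja1 are HSP40 co-chaperones that deliver clients to HSP70, Hsph1 (HSP105) exchanges its nucleotide, and Hspa8 is the constitutive HSC70. Hsp90aa1 and Hsp90ab1 are the inducible and the constitutive cytosolic HSP90, and Hspe1 is the HSP10 lid of the mitochondrial HSP60 chamber.

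Sequence 5′ of the start site is shown first, since HSF1 acts through elements there and the pair of genes that differed most between cell types is nearly identical in it. RefSeq promoters (GRCm38.p6) were at hand for 7 of the 10 members, and the 250 bases before the start site were searched on either strand for GAANNTTC or TTCNNGAA, the 2-unit element. RefSeq gives several start sites for some genes, so the 7 members have 11 windows. Some of these windows overlap, and both Hsph1 windows hold the same copy of the element, so they are not separate sequences. The element occurred in 7 of the 11, against 12.8% of all 32851 promoter windows of that length, and in any window of 6 of the 7 genes, against 14.5% of 27025 genes. Hspa1a and Hspa1b, 9951 bases apart on chromosome 17, differed at 3 of the 250 bases, and the element, in capitals, began 104 bases before the start site of each. Hspa1a lies at chr17:34969190-34972156 on the minus strand and its window at chr17:34972157-34972406; Hspa1b lies at chr17:34956436-34959238 on the same strand and its window at chr17:34959239-34959488.
Hspa1a: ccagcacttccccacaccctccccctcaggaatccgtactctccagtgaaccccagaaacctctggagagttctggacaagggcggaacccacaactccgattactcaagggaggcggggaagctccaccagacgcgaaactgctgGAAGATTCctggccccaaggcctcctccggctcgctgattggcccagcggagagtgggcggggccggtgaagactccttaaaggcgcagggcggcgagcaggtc
Hspa1b: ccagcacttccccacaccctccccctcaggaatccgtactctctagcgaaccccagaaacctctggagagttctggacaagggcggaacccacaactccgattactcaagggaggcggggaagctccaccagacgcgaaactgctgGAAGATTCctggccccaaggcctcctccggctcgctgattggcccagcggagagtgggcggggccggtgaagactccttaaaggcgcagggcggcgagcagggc

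The 4 other members with the element are given as 30 bases around their first match, again with the matches in capitals, at chr5:135887801-135887830 (plus strand) for Hspb1, chr4:40722333-40722362 (plus strand) for Dnaja1, chr5:149636351-149636380 (minus strand) for Hsph1 and chr1:55088053-55088082 (plus strand) for Hspe1.
Hspb1: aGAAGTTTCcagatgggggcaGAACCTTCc
Dnaja1: aaaagcctctaGAAAATTCtacgaggctcg
Hsph1: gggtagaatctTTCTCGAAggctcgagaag
Hspe1: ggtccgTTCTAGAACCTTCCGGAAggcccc
Hspe1 was the only one of the 7 with a 3-unit element, in which overlapping matches make GAA and TTC alternate over 3 units with 2 bases between units; 0.466% of all promoter windows hold one. Its 3 overlapping matches began 89, 84 and 79 bases before the start site and made 2 overlapping 3-unit elements. Hspb1 had separate matches at 117 and 97 bases. Both windows of Hsph1 held the same copy of the 2-unit element, 33 bases before 1 start and 54 before the other. RefSeq lists 3 starts for Dnaja1, which lie 318, 772 and 780 bases from the gene start annotated by GENCODE M21, and the element occurred before the first of these and in neither of the others. Both Dnajb1 windows held neither form. A match of letters is a description and not a bound site. Hspa8, Hsp90aa1 and Hsp90ab1 are described by their counts only.

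Because 10x counting reads the 3′ ends of transcripts, near-identical copies matter there. Windows of 90 bases in the last 500 bases of the longest annotated transcript (GENCODE M21) were searched for exact copies in other genes. Of the 411 windows, none of Hspa1a or Hspa1b was found in another gene, although the aligned parts of these transcripts are 90.7% identical. An error-free stretch of 90 bases from there would thus tell the 2 genes apart. Copies that differ at a few bases were not searched for. For Hspa8, 79.8% of the windows also occurred in 8 other genes, and for Hspe1 36.0% occurred in 1 other gene, so their counts are less certain. The share was 7.06% for Hspb1, with the pseudogene Hsp25-ps1, and 0 for the others.

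The files held 27270 barcodes and after filtering 24487 cells, with median depths of 3675 UMIs (unique molecular identifiers, 1 per original RNA molecule) per cell in IgG and 6164 to 8392 in the treated libraries. Cells were gated on marker genes that exclude the heat shock genes. T-like cells (Cd3d, Cd3e, Cd3g) numbered 9071, macrophage-like cells (C1qa, C1qb, C1qc, Apoe and others) 4033 and monocyte-like cells (Ly6c2, Plac8, Chil3 and others, with few macrophage UMIs) 2425; 1557 phagocytes lay between the last 2 gates and 3773 cells met no gate. Levels are given as CPM, a gene's UMIs per 1000000 UMIs of the class. The 7 macrophage genes summed to between 6636 and 7886 CPM in macrophage-like cells and 235 to 271 CPM in monocyte-like cells. These genes define the gates, so that gap was fixed in advance. The 9 monocyte markers, some of them also gate genes, summed to 4762 to 5975 CPM in macrophage-like cells. They summed to 7842 to 10175 CPM in monocyte-like and 995 to 2001 CPM in T-like cells. Summed melanoma markers were at most 2.01 CPM in T-like, 23.2 CPM in macrophage-like and 8.47 CPM in monocyte-like cells. Barcode sequences shared between libraries numbered 67, or 0.246% of all.

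Hspa1a and Hspa1b, the inducible HSP70 genes, differed most between classes. Hspa1a stood at 143, 165, 215 and 117 CPM in T-like cells with IgG, with anti-PD-1, with anti-PSGL-1 and with the combination. It stood at 858, 1232, 864 and 521 CPM in monocyte-like cells and at 1214, 1059.9, 655 and 393 CPM in macrophage-like cells, in the same order. All T-like values lay below all values of either myeloid class, and the macrophage-like and monocyte-like values overlapped. Hspa1b gave the same picture, with 77.6, 92.8, 132 and 72.4 CPM in T-like, 491, 535, 541 and 294 CPM in monocyte-like and 649, 553, 423 and 211 CPM in macrophage-like cells.

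**Figure D1:**
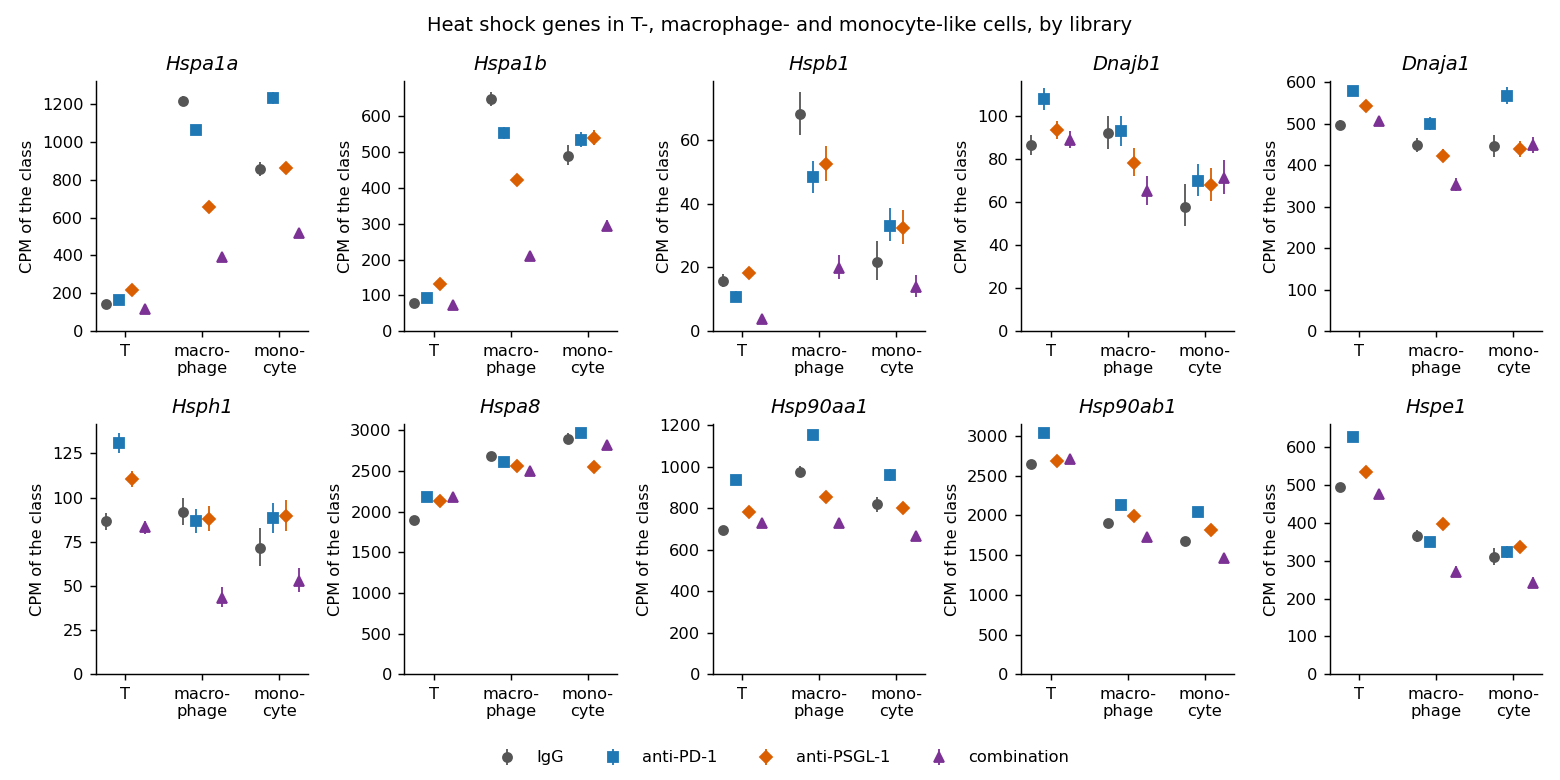
Level of each of the 10 genes (vertical axis, CPM of the class, from 0) in T-, macrophage- and monocyte-like cells, 1 point per library with its 95% Poisson interval of counting error. Hspa1a and Hspa1b of T-like cells sit below every myeloid value, whereas Hsp90ab1 and Hspe1 of T-like cells sit above them.

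Over all gated classes with at least 50 cells in a library, Hspa1a was highest, by the median over libraries, in the phagocytes between the gates (912 to 1762 CPM), then in monocyte-like (median 861) and macrophage-like cells (median 857), which overlapped. B-like cells followed at 294 CPM in IgG, 544 CPM with anti-PD-1 and 1602 CPM with anti-PSGL-1; 5 cells held 50% of the 685 UMIs of the last of these. Neutrophil-like cells ranged from 204 to 909 CPM and conventional dendritic type 2-like cells from 130.5 to 582 CPM. NK-like cells were lowest among classes seen in 4 libraries, at 13.2, 145, 208 and 6.68 CPM in the usual order, and 2 cells held 50% of the UMIs in each of the 2 higher libraries. Neighbours in this order overlapped in their ranges.

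**Figure D2:**
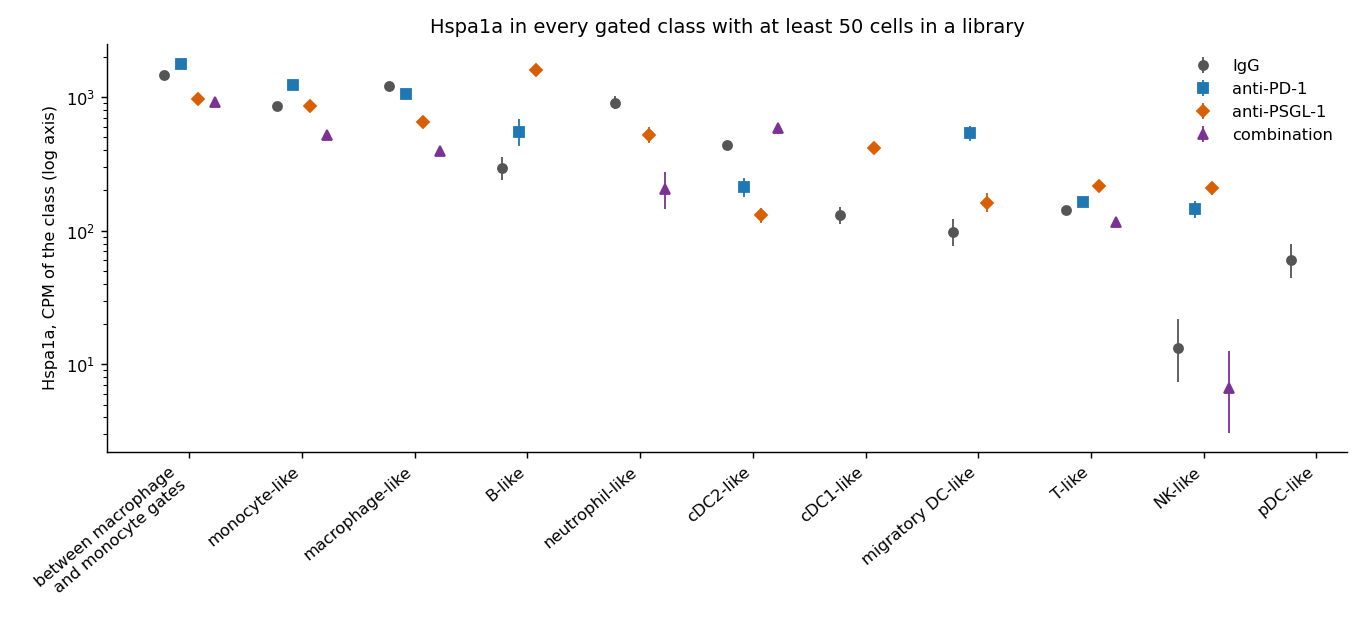
Hspa1a (vertical axis, CPM of the class, log axis) in each gated class with at least 50 cells in the library, ordered by the median over libraries; bars are 95% Poisson intervals. Phagocyte classes lie at the top, and NK-like cells of the IgG and combination libraries at 13.2 and 6.68 CPM at the bottom.

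Sums of UMIs per class and library were then compared across the 4 libraries with edgeR's quasi-likelihood test, with the library as a block and p-values adjusted over all 10916 genes tested. T-like and monocyte-like cells are far apart as cell types: 40.7% of all genes tested were called higher and 37% lower in T-like cells at an adjusted p under 0.05. Of the 10 members, 5 were lower, 2 were higher and 3 were not called; with most genes called either way, the number called says little about the members, and their sizes and directions follow. Hspa1a fell by 2.70 on the log2 scale in T-like against monocyte-like cells (SE 0.24, edgeR adjusted p = 2.01e-06), lower in 4 of 4 libraries, and Hspa1b fell by 2.59 (SE 0.23, edgeR adjusted p = 1.78e-06), also in 4 of 4. The ratio of Hspa1a CPM between the classes lay between 0.134 and 0.249 in the 4 libraries.

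Hspb1, the small heat shock protein, was also lower in T-like cells, at 15.8, 10.8, 18.2 and 3.76 CPM against 21.6, 33.1, 32.3 and 13.9 CPM in monocyte-like cells. Its log2 fold change was -1.50 (SE 0.22, edgeR adjusted p = 0.000105) and it was lower in 4 of 4 libraries, although the ranges of the classes overlapped. Hspa8, the constitutive HSC70, stood at 1897 to 2178 CPM in T-like and 2546 to 2969 CPM in monocyte-like cells, with no overlap and a log2 fold change of -0.74 (SE 0.07, edgeR adjusted p = 3.54e-06). Hsp90aa1 was called lower, with a log2 fold change of -0.36 (SE 0.09, edgeR adjusted p = 0.00275), but its CPM ranges overlapped and the call was lost without the library block (adjusted p = 0.0568) and with library totals as the only scaling (adjusted p = 0.430).

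Members called higher in T-like cells were Hsp90ab1, the constitutive HSP90, and Hspe1, the mitochondrial HSP10. Hsp90ab1 stood at 2648, 3038, 2687 and 2706 CPM in T-like cells and 1682, 2045, 1818 and 1462 CPM in monocyte-like cells, and Hspe1 at 493, 626, 534 and 477 CPM against 310.4, 322, 336 and 242 CPM. Neither pair of ranges overlapped. The log2 fold changes were 0.35 (SE 0.06, edgeR adjusted p = 0.000486) and 0.50 (SE 0.08, edgeR adjusted p = 0.000204). The co-chaperones Dnajb1, Dnaja1 and Hsph1 were not called, with log2 fold changes of 0.17, -0.15 and 0.14 (edgeR adjusted p = 0.185, 0.123 and 0.370). By CPM each was higher in T-like cells in 4 of 4 libraries, so the sign of Dnaja1 depends on the scaling described below. For Dnajb1 the ranges did not overlap, at 86.4 to 108 CPM against 57.8 to 71.2 CPM.

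**Figure D3:**
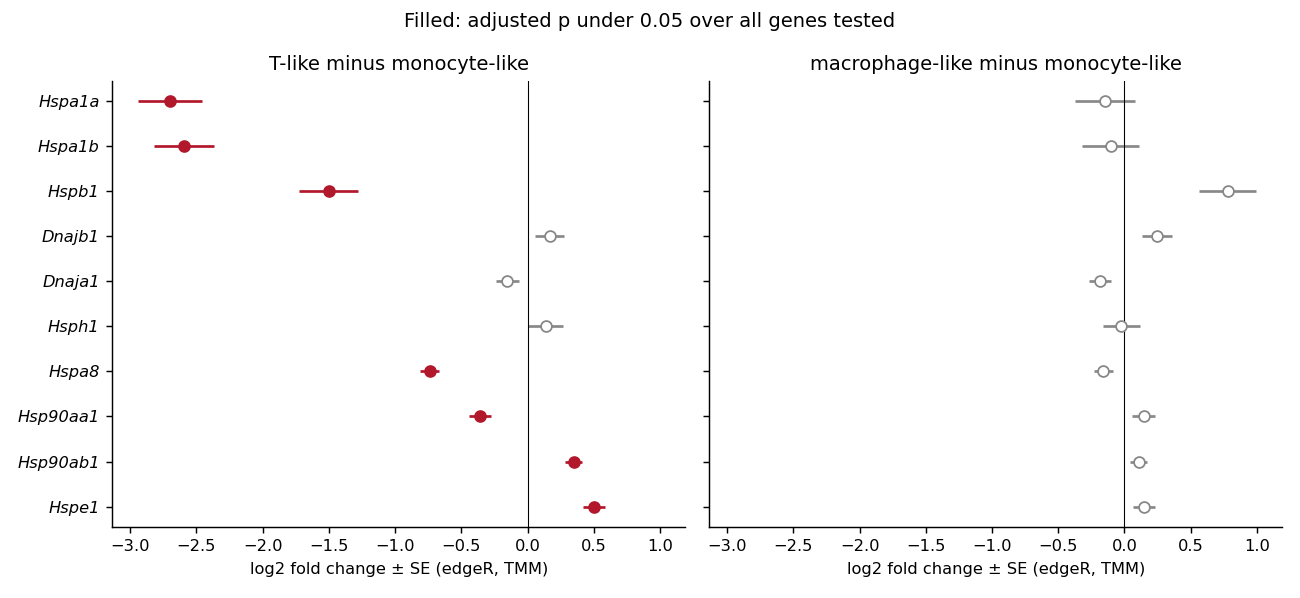
Log2 fold change with its SE (horizontal axis, edgeR with TMM scaling, 4 libraries) of each member for T-like and for macrophage-like against monocyte-like cells; filled points have an adjusted p under 0.05. Hspa1a at -2.70 and Hspa1b at -2.59 stand apart in the first contrast, and no point is filled in the second.

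These fold changes are relative to TMM, a scaling that sets the bulk of genes as equal; the median over all genes was 0.09 with it and 0.38 with library totals alone, a setting added after the data were seen. Under library totals the share of higher among called genes was 64.0% against 52.4% with TMM. Hspa1a (-2.41), Hspa1b (-2.31), Hspb1 (-1.21), Hspa8, Hsp90ab1 and Hspe1 kept their direction and call there, Dnajb1 (0.46, adjusted p = 0.00276) and Hsph1 (0.43, adjusted p = 0.0128) were called higher in T-like cells, and the sign of Dnaja1 turned without a call in either setting.

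Macrophage-like cells were much closer to monocyte-like cells: 4.06% of genes tested were higher and 2.61% lower. None of the 10 members was called by edgeR. At an unadjusted edgeR p under 0.05 were 2 members (Hspb1 and Hspa8), beside 2467 of all 10916 genes tested. DESeq2 called 1 member (Hspb1) and also called more genes in all than edgeR, as given in the closing section. Neither count is read as a result about the members. The log2 fold change of Hspa1a was -0.15 (SE 0.23, edgeR adjusted p = 0.757), and macrophage-like exceeded monocyte-like cells in 1 of 4 libraries. Hspb1 came nearest to a call, at 68.0, 48.2, 52.3 and 19.9 CPM in macrophage-like cells, a log2 fold change of 0.78 (SE 0.22, edgeR adjusted p = 0.0605), higher in 4 of 4 libraries. This comparison depended on how the classes were drawn. Clusters were named after a gate that held at least 40% of their cells, so cluster classes are mixed. The monocyte cluster held 44.9% gated monocyte-like cells. The macrophage clusters held 52.2%, 73.1% and 61.7% gated macrophage-like cells. With classes taken from unsupervised clusters in place of gates, 6 members were called, Hspa1a (-0.85, adjusted p = 0.0301), Hspa1b (-0.77), Dnaja1 (-0.67), Hsph1 (-0.63) and Hspa8 (-0.28) lower in macrophage-like cells and Hsp90ab1 (0.30) higher, while genes called in all rose from 728 to 3180. Hspb1 was then at -0.04 (adjusted p = 0.963).

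The class totals hide that few cells carried most of the HSP70 transcripts. In T-like cells the 5% of cells with the most Hspa1a UMIs held 93.4% to 97.1% of them, and 15 to 27 cells of 1596 to 2815 held 50%. In monocyte-like cells 10 to 23 cells, and in macrophage-like cells 12 to 39 cells, held 50%. Hspb1 was more concentrated still, with 50% of its UMIs in 1 to 5 cells of each class and library. Hspa8 was spread: 97.3% to 99.6% of T-like cells had a UMI of it. The Poisson intervals treat UMIs as independent and are therefore too narrow for genes carried by so few cells.

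To set depth equal, each cell was thinned to 2000 UMIs, which left out 21 to 246 T-like, 32 to 175 macrophage-like and 3 to 35 monocyte-like cells per library. Hspa1a was then found in 4.83% to 7.22% of T-like, 14.0% to 25.7% of macrophage-like and 13.03% to 22.7% of monocyte-like cells; unthinned, the shares were 8.17% to 13.4%, 24.9% to 40.6% and 24.1% to 32.02%. No class lacks these genes by definition. NK-like cells, whose median depth was 2624 to 5845.5 UMIs against 3601 to 9601 in T-like cells, had Hspa1a in 1.10% to 6.23% of cells after thinning, which overlaps the T-like range. Free RNA in the droplets was not measured, so its part in the T-like share was not tested, and no order between T-like and NK-like cells is read from these shares. Dnajb1 and Hspe1 were found in more T-like than monocyte-like cells: Dnajb1 was found in 13.7% to 17.02% of T-like and 10.3% to 13.9% of monocyte-like cells, and Hspe1 in 51.5% to 59.1% and 32.8% to 38.6%.

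Cells were next grouped by the sum of Hspa1a and Hspa1b among their 2000 thinned UMIs. At least 5 such UMIs were found in 2.82% of T-like cells (245 cells), 10.4% of macrophage-like (383) and 10.48% of monocyte-like cells (247), and no such UMI in 92.3%, 76.0% and 80.2%. Near the boundary 18 T-like cells had exactly 4 and 22 exactly 5. The remaining 8 members, counted on the UMIs that did not define the groups, were all higher in the cells with 5 or more than in those with 0, in 4 of 4 libraries and in each of the 3 classes. This is a description over cells of the same libraries and has no test.

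In T-like cells pooled over libraries, Dnajb1 stood at 1116 CPM in the cells with 5 or more and 73.5 CPM in those with 0, Hsph1 at 1011 and 67.6 CPM, and Hsp90aa1 at 5122 and 572 CPM. The ratio in single libraries was 11.4 to 22.3 for Dnajb1, 12.5 to 15.5 for Hsph1 and 7.20 to 9.93 for Hsp90aa1. Hspb1 stood at 382 CPM against 2.24 CPM in the cells with 0. The constitutive genes differed by less, Hspa8 with 4666 against 1891 CPM and Hsp90ab1 with 5871 against 2258 CPM. Macrophage-like cells with 5 or more had Dnajb1 at 382 against 51.6 CPM and Hsph1 at 520 against 35.1 CPM, and monocyte-like cells had Dnajb1 at 271 against 47.6 CPM and Hsph1 at 423 against 30.9 CPM. Dnajb1 and Hsph1 of the T-like cells with 5 or more exceeded those of both myeloid classes in 4 of 4 libraries.

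**Figure D4:**
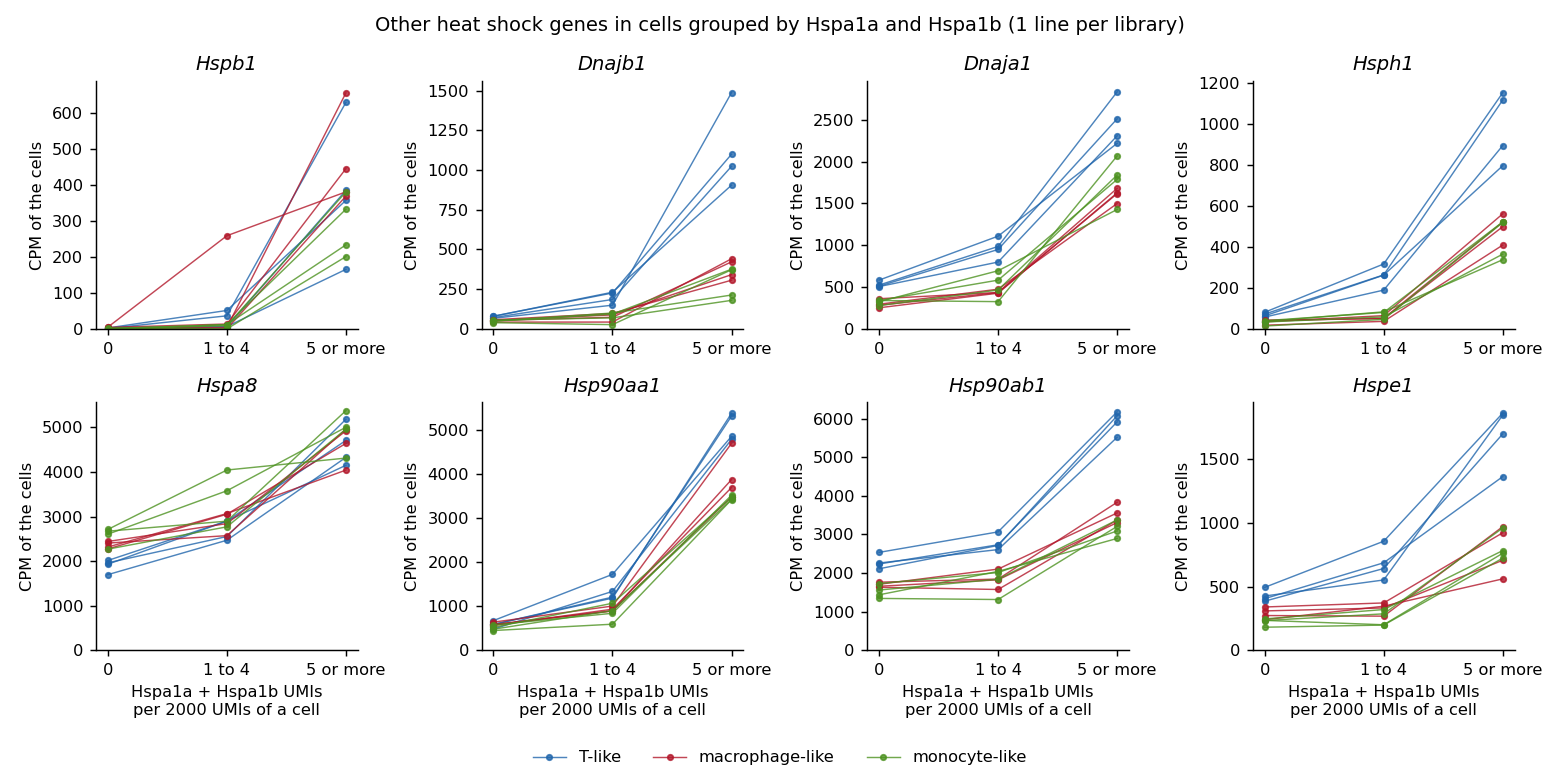
Level of the 8 other members (vertical axis, CPM of the cells without the Hspa1a and Hspa1b UMIs, from 0) in cells with 0, 1 to 4 or at least 5 Hspa1a and Hspa1b UMIs per 2000; each line is 1 library in 1 class. Every line ends higher than it starts, with Dnajb1 of T-like cells at 905 to 1488 CPM on the right.

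Other chaperone and stress genes were read in the same cells. Chaperones and cofactors outside the members summed to 5390 against 3946 CPM in T-like cells, a ratio of 1.37, higher in 4 of 4 libraries. In macrophage-like cells they summed to 3190 against 3056 CPM (ratio 1.04, higher in 3 of 4). In monocyte-like cells they summed to 3187 against 2866 CPM (ratio 1.11, higher in 4 of 4). Immediate early and dissociation response genes, such as Fos, Jun and Atf3, summed to 16963 against 11498 CPM in T-like, 34647 against 23588 CPM in macrophage-like and 32316 against 24506 CPM in monocyte-like cells, higher in 4 of 4 libraries of each class. The hypoxia list summed to 3228 against 2443 CPM in T-like, 6597 against 3981 CPM in macrophage-like and 6005 against 3399 CPM in monocyte-like cells. The oxidative stress list summed to 687 against 305 CPM, 2488 against 1261 CPM and 2245 against 876 CPM in the same order. Both were higher in 4 of 4 libraries of each class. ER stress genes, which respond through another pathway, differed little, at 3233 against 3125 CPM in T-like cells (higher in 2 of 4 libraries), 5397 against 5677 CPM in macrophage-like cells (1 of 4) and 4615 against 4479 CPM in monocyte-like cells (3 of 4). The heat shock regulators (Hsf1, Hsf2, Hsf4 and Hsbp1) summed to 122 against 161 CPM in macrophage-like and 86.3 against 132 CPM in monocyte-like cells, higher in 0 of 4 libraries of either, and to 105 against 112 CPM in T-like cells, higher in 2 of 4. Pooled over libraries, median depth was 5536 against 6252 UMIs in T-like cells and the mitochondrial share 2.45% against 2.58%. By library the depths were 4152 against 3880 UMIs in IgG and 7804 against 8341 with anti-PD-1. They were 5263 against 5933 UMIs with anti-PSGL-1 and 5457 against 9779 with the combination. The part of depth and of mitochondrial share in these differences was not tested.

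Other stress and chaperone genes were read in the same contrasts. Of the 38 other chaperones and cofactors tested, 23 were higher and 4 lower in T-like than in monocyte-like cells. Their median log2 fold change was 0.37 beside 0.09 for all genes and -0.26 for the 10 members. Fkbp4, an HSP90 co-chaperone, was higher by 1.00 (SE 0.09, edgeR adjusted p = 2.40e-06) and Dnajc2, a ribosome-associated HSP40, by 0.88 (edgeR adjusted p = 7.72e-06). Dnaja4 stood at 10.1 to 15.7 CPM in T-like cells and at most 0.427 CPM in monocyte-like cells. Bag3, an HSP70 co-chaperone that is itself induced by heat, was lower, with a log2 fold change of -2.39 (SE 0.12, edgeR adjusted p = 3.23e-08). Immediate early genes were lower in T-like cells in 29 of 32, with Ier3 at -5.91 and Cebpb at -3.66, and Dusp2 was higher. ER stress genes were lower in 16 of 19 (Xbp1 -2.11, Hspa5 -1.02) and hypoxia genes in 13 of 15, with Vegfa at -5.17 and Ddit4 higher at 1.74. Oxidative stress genes were lower in 5 of 7, with Hmox1 at -5.60, and Mt2 was higher. Of 3 regulators, Hsbp1 was lower (-0.59) and the other 2 were not called.

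Between macrophage-like and monocyte-like cells fewer genes of these lists were called. Chaperones and cofactors were higher in 2 of 38, the HSP70 co-chaperone St13 (0.33, edgeR adjusted p = 0.0269) and Stub1, a ubiquitin ligase that works with HSP70, and none was lower. ER stress genes were higher in 6 of 19, among them Calr (0.45, edgeR adjusted p = 0.0108), where 4.06% of all genes tested were higher. Median log2 fold changes were 0.29 for ER stress, 0.38 for oxidative stress and 0.23 for hypoxia genes, beside 0.0007 for all genes. The medians were 0.08 for immediate early genes and 0.05 for chaperones and cofactors. Immediate early genes were higher in 1 of 32 (Egr1, 1.01, edgeR adjusted p = 0.0347) with Fosl2 lower. No gene of the 15 hypoxia genes and none of 3 regulators was called by edgeR, and Hmox1 of the 7 oxidative stress genes was higher (0.59).

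Treatments were compared as ratios of CPM to the IgG library, within a class, with exact 95% intervals of counting error and no test. A ratio past 1.5-fold in either direction is used as a size. In macrophage-like cells of the combination, 4 of 10 members were lower past that size, where 1.11% of genes at 50 CPM or more were lower and 4.04% higher: Hspa1a at 0.323 of IgG (0.308 to 0.339), Hspa1b at 0.326 (0.305 to 0.347), Hspb1 at 0.293 (0.236 to 0.362) and Hsph1 at 0.471 (0.404 to 0.548). With cluster classes Hsph1 was at 0.722, inside that size. The median log2 ratio of the members was -0.46 beside 0.04 for all genes, and Hspe1, Hsp90aa1, Dnajb1 and Dnaja1 had ratios of 0.743, 0.749, 0.708 and 0.787. Hspa8 and Hsp90ab1 were nearest to IgG at 0.933 and 0.909.

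Monocyte-like cells of the combination had 3 members lower past that size, where 1.13% of genes were lower and 4.19% higher: Hspa1a at 0.607 (0.573 to 0.644), Hspa1b at 0.600 (0.555 to 0.649) and Hspb1 at 0.644 (0.441 to 0.944), the last at 13.9 against 21.6 CPM and so below the 50 CPM that the percentage refers to. The share of cells with at least 5 HSP70 UMIs per 2000 was 13.4% (Clopper-Pearson 11.4% to 15.5%) of IgG and 5.87% (4.17% to 8.00%) of combination macrophage-like cells, and 10.2% (7.59% to 13.3%) and 6.42% (4.51% to 8.82%) of monocyte-like cells. Among those macrophage-like cells the median number of such UMIs was 25 in IgG and 16 in the combination. Median depth before thinning was 4658 UMIs in IgG and 8140 in combination macrophage-like cells, and its part in the difference was not tested. The combination values for Hspa1a and Hspa1b in macrophage-like cells kept ratios of 0.307 to 0.343 over 6 other settings, including clusters in place of gates and every cell given the same weight. Hspb1 turned there, to 1.10 with clusters, and is carried by few cells. Against the single antibodies, Hspa1a of combination macrophage-like cells was at 0.371 (0.353 to 0.389) of anti-PD-1 and 0.600 (0.570 to 0.631) of anti-PSGL-1.

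Anti-PSGL-1 alone went different ways in the 3 classes. In macrophage-like cells Hspa1a was at 0.539 of IgG (0.520 to 0.559) and Hspa1b at 0.652 (0.622 to 0.684), 2 of 10 members, where 0.514% of genes were lower past 1.5-fold and 1.4% higher. In monocyte-like cells these ratios were 1.01 and 1.10. In T-like cells they were 1.51 (1.43 to 1.59) and 1.70 (1.59 to 1.83), 2 of 10 members, where 0.472% of genes were higher and 0.182% lower; the Hspa1a value is at the boundary and stood at 1.26 without dividing cells and 1.37 with likely doublets kept. Hspa1b of T-like cells was at 1.47 with likely doublets kept, and Hspa1b of macrophage-like cells at 0.806 with cluster classes, both inside the size. Within T-like cells Hspa1a was 142 CPM in CD8 T-like cells of anti-PSGL-1 against 128 CPM in IgG, and 463 against 140 CPM in CD4 T-like cells, where 8 of 489 cells held 50% of the UMIs.

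With anti-PD-1, in T-like cells, Hsph1 alone was past 1.5-fold, at 131 against 86.5 CPM and a ratio of 1.51 (1.41 to 1.62), where 3.11% of genes were higher, and Hsp90aa1 followed at 1.35 (1.32 to 1.38). In macrophage-like cells no member was past 1.5-fold, with Hspa1a at 0.873 and Hsp90aa1 at 1.18, where 8.65% of genes were higher and 2.98% lower. In monocyte-like cells Hspb1 was at 1.53 (1.12 to 2.13), where 9.75% of genes at 50 CPM or more were higher and 3.2% lower, and Hspa1a was at 1.44 (1.37 to 1.51). With cluster classes 6 members of these cells were past the size, where 13.4% of genes were past it in either direction, with Hspb1 at 2.91, Hspa1a at 2.15 and Hspa1b at 2.04, against 1.09 for Hspa1b with gates. In T-like cells of the combination 1 member was past the size, Hspb1 at 0.238 (0.185 to 0.304), or 3.76 against 15.8 CPM, with 50% of these UMIs in 3 and 4 cells; 4.21% of genes at 50 CPM or more were lower and 3.45% higher. The T-like sum joins subsets whose ratios differed, a difference that was not tested. Hspa1a was at 0.603 of IgG in CD8 T-like cells (76.9 against 128 CPM) and at 2.34 in CD4 T-like cells (327 against 140.1 CPM), where 2 of 141 combination cells held 50% of the UMIs. In the latter Hspa1b was at 2.87, Hsph1 at 2.19 and Hsp90aa1 at 2.30. No member of monocyte-like cells was past it with anti-PSGL-1, where 1.8% of genes were higher and 2.05% lower.

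**Figure D5:**
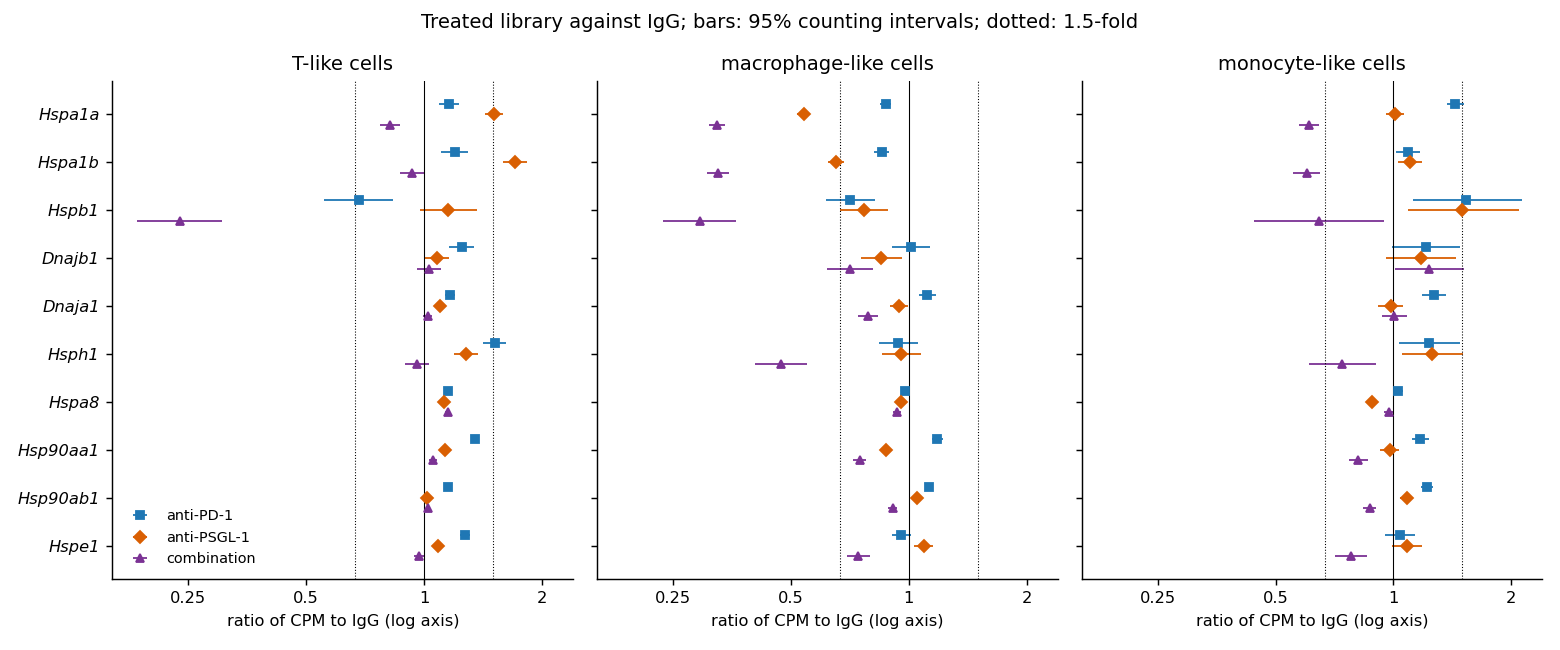
Ratio of CPM in each treated library to the IgG library (horizontal axis, log axis) for each member in T-, macrophage- and monocyte-like cells, with exact 95% intervals of counting error; dotted lines mark 1.5-fold. Combination points of Hspa1a, Hspa1b, Hspb1 and Hsph1 lie at 0.293 to 0.471 in macrophage-like cells, and anti-PSGL-1 points of Hspa1a lie at 1.51 in T-like and 0.539 in macrophage-like cells.

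The other stress lists were read in the same way. In combination macrophage-like cells none of 24 other chaperones and cofactors, 16 ER stress genes or 11 hypoxia genes at 50 CPM or more was past 1.5-fold. Over all genes at that level 1.11% were lower and 4.04% higher past it. At such shares, lists of this size hold few genes past it in any case. Of 32 immediate early genes Klf2 alone was past 1.5-fold, at 334 against 204 CPM. In T-like cells immediate early genes were lower past 1.5-fold in 10 of 26 with anti-PD-1, where 4.33% of genes were lower. With the combination 8 of 26 were lower past it, where 4.21% of genes were. Fos was at 25.5 CPM with anti-PD-1 and 28.4 CPM with the combination against 77.9 CPM in IgG, and Klf2 at 86.7 and 66.1 CPM against 190 CPM; none of these 26 genes was lower past 1.5-fold with anti-PSGL-1, and Egr1 was higher past it, at 124 against 64.0 CPM. The metallothioneins Mt1 and Mt2 of the oxidative stress list were higher in T-like cells with anti-PD-1 (395 against 157 and 101 against 29.99 CPM) and with the combination (328 and 87.2 CPM). The treated libraries share the IgG library, so their ratios are not independent of each other.

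Across 40 sums of a class and a library with at least 50 cells, the gene whose level was most like Hspa1a was Hspa1b, with a Pearson correlation of log2 CPM of 0.979 among 5390 genes. Egr2, an immediate early transcription factor, followed at 0.779, then Plekhf2 (0.756), Ralgds (0.747) and Soat1 (0.746), a cholesterol esterification enzyme. Among the members Hsp90aa1 ranked 45th at 0.672 and Hspb1 467th at 0.532, while Hsp90ab1 was at -0.21 and Hspe1 at -0.18. The sums share libraries and cell types and have no test.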

How the data were processed

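The authors deposited whole-number UMI counts for each gene in each barcode of 4 libraries, without normalisation. Cell Ranger 3.1.0, FastQC and the build mm10 are named in the submitters' processing notes; their settings and the annotation are not stated in the sources used here. The members, gene lists and tests were chosen with earlier results of these data known.

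Kept cells had 300 or more genes, no more than 10% mitochondrial UMIs and no more than 60000 UMIs. Doublets were scored with Scrublet (scanpy 1.11.5), whose automatic cut-off failed (between 0 and 84 cells per library); instead the top scores were removed, 717, 219, 377 and 154 cells, a rate that grows with the number of cells loaded. Gates used marker UMIs per 10000 UMIs of a cell, with thresholds set after the marker distributions were seen. Gate genes left the tests. The feature list used here holds no Trac, Trbc1 or Trbc2, so T-like cells rest on CD3 genes. Levels are CPM of the class with exact 95% Poisson intervals. Sums of the counts per class and library (12 sums) entered edgeR 4.0.16 (TMM, filterByExpr, quasi-likelihood, Benjamini-Hochberg, adjusted p under 0.05) with library as a block, since the 3 classes of a library share a preparation. The tests were tried on simulated counts. SEs are the log2 fold change over the root of F. P-values measure how far the class differences varied between these 4 libraries, which had different treatments. The 3 classes share the same estimate of that spread. Up to 3 genes per list and direction with the smallest adjusted p were named in class contrasts, and in treatments up to 2 each way by the interval bound farthest from 1; of these only some are printed. Other settings were DESeq2 1.42.0 and those in the closing section. Intervals cover counting error only, with 4614 to 9733 barcodes and 40913129 to 53303195 UMIs per library.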

Additional observations from a re-analysis of the deposited data

Results flagged for a closer look

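The anti-PSGL-1 library differed from IgG in opposite directions in T-like and macrophage-like cells for both inducible HSP70 genes, a difference that was not tested because each group is 1 library. Hspa1a had a ratio to IgG of 1.51 in T-like and 0.539 in macrophage-like cells. For Hspa1b the ratios were 1.70 in T-like and 0.652 in macrophage-like cells. In T-like cells 27 of 2591 cells held 50% of the Hspa1a UMIs of the anti-PSGL-1 library.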

How the results depend on the processing

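The 7 members called between T-like and monocyte-like cells kept their direction under the 13 other settings, and their calls apart from Hsp90aa1 (no replicate block, adjusted p = 0.0568, and library totals alone, 0.430). Dnajb1 and Hsph1 were also called higher with library totals alone, Dnajb1 with dividing cells left out (0.47) and Dnaja1 lower with cluster classes (-0.37). Leaving out a library gave 7893 to 8130 genes and 7 members called. For macrophage-like against monocyte-like cells 728 genes became 1227 with DESeq2, 210 to 308 with a library left out, 477 with no replicate block and 3180 with cluster classes. Members called there rose from 0 to 1 with DESeq2, no filter on low counts, library totals alone (chosen after seeing the data) or dividing cells left out, and to 6 with cluster classes; 0 were called with a library left out. The classes of a library pair the sums by design.

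Members past 1.5-fold against IgG numbered, in T-, macrophage- and monocyte-like cells, 1, 0 and 1 (anti-PD-1 library), 2, 2 and 0 (library of anti-PSGL-1 alone) and 1, 4 and 3 (combination library), and changed as follows, with the share of all genes at 50 CPM or more past that size in the same setting. With cluster classes they were 2 with the combination (7%) and 1 with anti-PD-1 (14.1%) or anti-PSGL-1 (2.14%) in macrophage-like cells and 6 (anti-PD-1, 13.4%) and 1 (combination, 4.53%) in monocyte-like cells. With likely doublets kept they were 0 in T-like (0.617%) and 1 in monocyte-like cells (3.64%) for anti-PSGL-1. With dividing cells left out they were 2 (anti-PD-1, 7.17%) and 1 (anti-PSGL-1, 0.702%) in T-like cells and 1 (anti-PSGL-1, 3.75%) in monocyte-like cells. Without ribosomal and mitochondrial genes in the scale they were 0 for anti-PD-1 in T-like (7.48%) and in monocyte-like cells (12.2%) and 1 for anti-PSGL-1 in monocyte-like cells (3.74%). With each cell weighing the same they were 1 for anti-PSGL-1 in T-like cells (0.507%) and 2 (anti-PD-1, 14.1%) and 1 (anti-PSGL-1, 3.65%) in monocyte-like cells.

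Of 540 single ratios 412 moved by less than their interval. Of the 84 whose gated value was past 1.5-fold, 1 crossed to the other side of IgG: Hspb1 of combination macrophage-like cells, 1.10 with cluster classes. Of the 456 inside that size, 32 crossed, among them Hspa1a (0.818 to 1.19) and Hspa1b (0.933 to 1.31) of combination T-like cells with each cell weighing the same and Hspb1 of anti-PSGL-1 macrophage-like cells (0.769 to 1.13) with cluster classes. The causes were not tested. Depth limits low members: the counting interval of Hspb1 in combination monocyte-like cells ran from 0.441 to 0.944.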
